A study of Mus musculus with 13 samples.

Results

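The aminoacyl-tRNA synthetase genes of the mouse liver were taken from a table with 1 row for each gene, as the protein-coding rows whose symbol is a single letter followed by ars, alone or with a 1 or a 2 at the end, or is Farsa, Farsb, Eprs, Eprs1, Aimp1, Aimp2 or Eef1e1. The rule found 40 genes among 11779 listed genes, of which 11396 are protein-coding. Of these, 20 encode cytosolic enzymes, 17 encode mitochondrial enzymes and 3 encode scaffold proteins that hold cytosolic enzymes together. Every amino acid has a cytosolic enzyme gene in the table. The lowest mean normalized count of any listed gene was 15.6, and no further filter was applied, so the counts below cover all 40 genes.

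The table came from RNA sequencing of livers of Balb/c mice, 3 given a GalNAc-conjugated antisense oligonucleotide (ASO) against firefly luciferase, named Luc ASO, and 3 given a mix of 5 GalNAc-conjugated ASOs against the long noncoding RNA LL35, also known as Falcor. The labels and the study's text give 5 such ASOs, whereas its list of ASOs for mice names 4. GalNAc is a sugar that brings the ASO to hepatocytes, and the livers were collected on day 5 after injection into the tail vein. The labels give the dose for each ASO and the study's methods give it in total, and the age of the mice is not given in the sources used here. Libraries of cultured AML12 hepatocytes, collected on day 2 with 3 Luc ASO and 4 LL35 ASO samples, were not analysed here. For each gene the level used here is the authors' mean normalized count. It was taken to be the mean over the liver libraries of both groups, as the software defines it, although the labels do not say which libraries were averaged. A level of either group alone, a spread between mice and a test of LL35 ASO against Luc ASO could not be computed from it, and the depth of each library is unknown. No row of the table carries the symbol of LL35, 9030622O22Rik, and its knockdown was not checked here.

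The labelled tissue was checked against cell type markers. All 8 hepatocyte markers were listed, and their mean normalized counts ran from 10070 for Serpina1a, a protease inhibitor of the plasma, to 1.22e+06 for Alb, the gene of albumin. Markers of Kupffer cells, endothelial cells and stellate cells were listed too, with mean normalized counts from 119 to 2171, whereas only 1 of 4 cholangiocyte markers and 1 of 4 T cell markers were listed. Of 4 erythroid markers 3 were listed, from 42.8 to 316. The levels of the synthetase genes therefore describe whole liver tissue, in which fewer cells of a type and less RNA per cell cannot be told apart.

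An aminoacyl-tRNA synthetase joins an amino acid to the tRNAs that carry its anticodons, with energy from ATP, and thereby sets the meaning of the genetic code. Mammals keep one set of enzymes in the cytosol and another in mitochondria, both encoded by nuclear genes, and the mitochondrial enzymes charge the tRNAs that read the small mitochondrial genome. In liver the cytosolic enzymes feed the synthesis of plasma proteins, and the genes of many of them are known targets of ATF4, a transcription factor of the response to amino acid shortage. The enzymes for glycine and for lysine are made for both compartments from single genes, Gars and Kars, which were counted with the cytosolic enzymes. Mitochondria have no glutaminyl enzyme of their own, since their glutamine tRNA is first charged with glutamate and then converted.

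Stretches of promoter are shown where they hold the element through which ATF4 is known to act on genes of this kind, chosen with results of these data known. The motif TGATGNAA, the core of the composite element that ATF4 binds with C/EBP partners, was searched on both strands, where its other strand reads TTNCATCA, from 250 bases before to 50 after the start of each gene. Promoters came from RefSeq on the build GRCm38.p6 and matched 30 of the 40 members, 13 of them cytosolic, 14 mitochondrial and 3 scaffold. Each stretch is written in the direction of its gene with the motif in capitals, and the position of the first base of the motif is counted from the start of the gene as 0.
Aars, chr8:111033840-111033869 (+), motif from 9: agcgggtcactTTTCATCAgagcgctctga
Gars, chr6:55037960-55037989 (+), motif from -30: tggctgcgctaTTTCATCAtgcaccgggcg
Iars, chr13:49682126-49682155 (+), motif from 7: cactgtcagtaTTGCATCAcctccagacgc
Tars, chr15:11399655-11399684 (-), motif from -15: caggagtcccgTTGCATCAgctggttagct
Yars, chr4:129189895-129189924 (+), motif from 3: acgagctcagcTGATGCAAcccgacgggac

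The motif was present in 5 of the 13 cytosolic promoters, or 38.5%, in 0 of the 14 mitochondrial promoters and in 0 of the 3 scaffold promoters. One match is shown for each of these genes, all of them within 50 bases of the start. Among listed protein-coding genes with a promoter it was present in 248 of 9156, or 2.71%, and among all genes of the promoter table in 1219 of 27025, or 4.51%. A match is a description of the letters, and binding by a factor was not measured. The 5 cytosolic genes with the motif had levels per kb of exon from 69.2 to 200 with a median of 136, and the 8 cytosolic genes with a promoter and no match had levels from 58.0 to 153 with a median of 121, so the ranges overlapped widely.

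Levels of different genes were compared per length, as the mean normalized count divided by the kb of exon that the annotation GENCODE M21 gives to the gene. On this scale the cytosolic enzymes had a median of 113, at percentile 72.1 of the 11385 listed protein-coding genes with a length, and the mitochondrial enzymes a median of 42.1, at percentile 43.5. The ratio of the medians was 2.69, and the median over all protein-coding genes was 52.1. Above that median stood 19 of the 20 cytosolic enzymes, 4 of the 17 mitochondrial enzymes and 0 of the 3 scaffold genes. Per kb of coding sequence these counts were 16, 4 and 2, and the medians stood at percentile 55.7 for the cytosolic and 36.6 for the mitochondrial enzymes. These levels are means over the same libraries and the genes are not replicates, so no test was made of the difference between the sets.

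**Figure D1:**
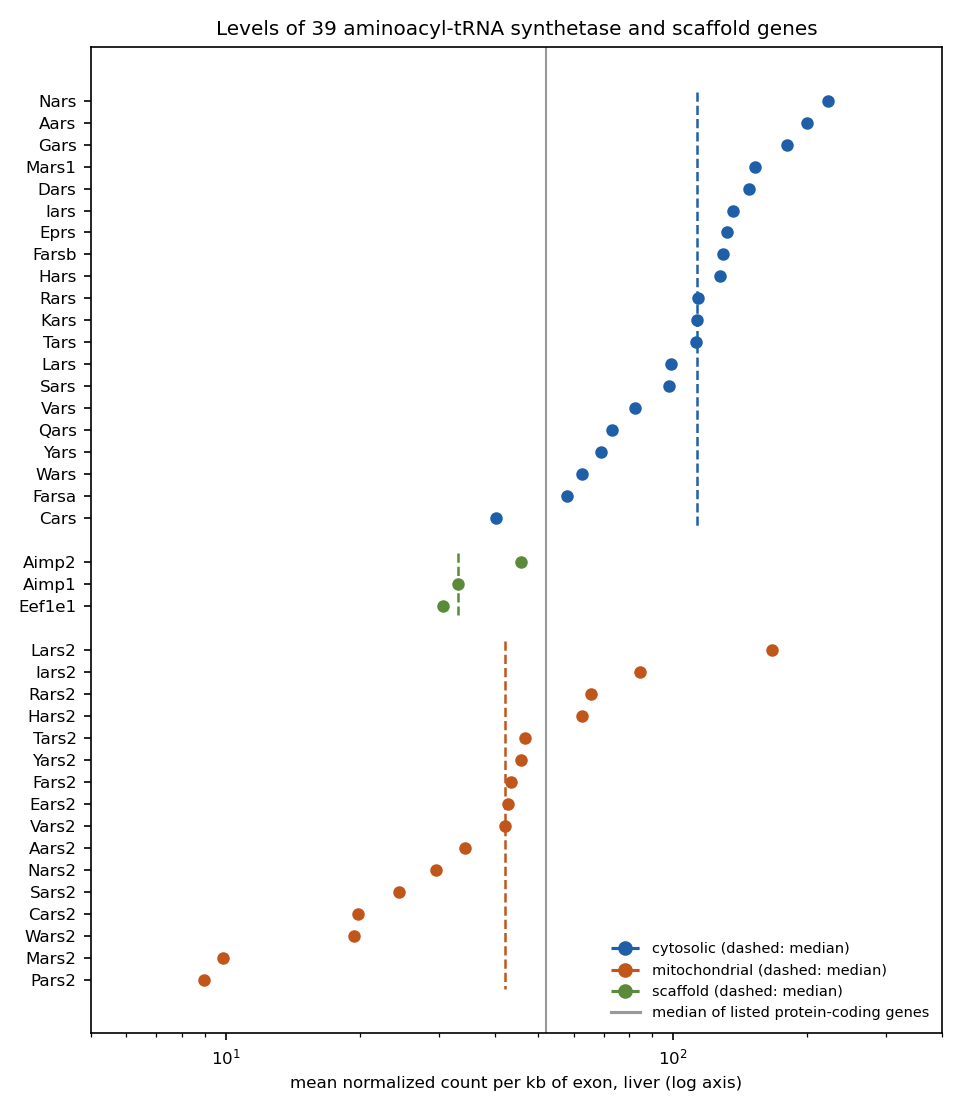
Levels of 39 genes as the authors' mean normalized count per kb of exon, on a log axis, with 1 point for each gene, dashed lines at the medians of the whole sets and a grey line at the median of the listed protein-coding genes. All cytosolic enzymes but Cars lie to the right of the grey line at 52.1, while 12 of the 16 mitochondrial enzymes plotted lie to its left and Lars2 stands alone among the highest cytosolic genes.

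The cytosolic set was led by Nars, the asparaginyl enzyme (ENSMUSG00000024587), with a level of 222 per kb of exon from a mean normalized count of 967. Aars followed with 200 and Gars with 180. These are class II enzymes, a structural class that shares a catalytic core built around an antiparallel sheet. Next came Mars1, which charges both the initiator and the elongator tRNA of methionine, with 153, and Dars, the aspartyl enzyme, with 148.

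At the low end of the cytosolic set stood Cars, the cysteinyl enzyme, with 40.2 per kb of exon, the only cytosolic enzyme below the median of protein-coding genes on this scale. Farsa, the catalytic alpha subunit of the phenylalanyl enzyme, had 58.0. Wars, the tryptophanyl enzyme and an interferon-inducible gene in many cell types, had 62.7. Yars, the tyrosyl enzyme, had 69.2 and Qars, the glutaminyl enzyme, had 73.2. The remaining 10 cytosolic genes lay between 82.3 and 136, so the whole set covered a 5.52-fold range.

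The cytosolic phenylalanyl enzyme is built from equal numbers of alpha and beta subunits. Farsb, the gene of the beta subunit, had 130 per kb of exon against 58.0 for Farsa, a ratio of 2.24. Their mean normalized counts were closer, 340 and 263, and per kb of coding sequence the ratio was 1.11. The difference between the genes of the subunits thus moved with the length used, since the exons of Farsa add up to 4538 bases and those of Farsb to 2620.

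The mitochondrial set spread over an 18.6-fold range per kb of exon. Lars2, the mitochondrial leucyl enzyme (ENSMUSG00000035202), stood at the top with 166 from a mean normalized count of 1844. It ranked 4 of the 40 genes per kb of exon and 1 of 40 per kb of coding sequence. Iars2, the isoleucyl enzyme, came next with 84.6, so that 14 cytosolic enzymes exceeded every mitochondrial enzyme but Lars2 on this scale. The number was 8 per kb of coding sequence and 3 without division by length.

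Rars2, the arginyl enzyme, had 65.5 per kb of exon and Hars2, the histidyl enzyme, had 62.7. They were the last mitochondrial genes above the median of protein-coding genes. Tars2, which charges threonine, had 46.8. From Yars2 to Vars2 the levels were packed between 45.7 and 42.1, a range that also holds Fars2 and Ears2.

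The lowest level of all 40 genes was that of Pars2, the mitochondrial prolyl enzyme, with 8.94 per kb of exon from a mean normalized count of 27.7. Mars2, the methionyl enzyme, had 9.85. Unlike Pars2, Mars2 had a moderate mean normalized count, 111, which was divided by 11294 bases of exon around a coding sequence of 1758 bases. Wars2 had 19.4, Cars2 had 19.8 and Sars2, the seryl enzyme, had 24.4. In all, 8 mitochondrial enzymes lay below the lowest cytosolic enzyme, and Lars2 was the only one above the cytosolic median. Whether neighbours in this order differ by more than the spread between mice could not be assessed.

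Charging enzymes took a small share of the normalized counts. The mean normalized counts of the 40 genes added up to 0.169% of the sum over the listed protein-coding genes, of which the cytosolic enzymes made up 0.118% and the mitochondrial enzymes 0.0474%. Without division by length, Eprs had the highest value of all 40 genes, 2396, followed by Aars with 1856 and Lars2 with 1844. On this scale the cytosolic median was 504 and the mitochondrial median 181, beside 244 over all protein-coding genes.

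Cytosolic and mitochondrial enzymes were then compared for the same amino acid, in 18 pairs that use Eprs for both glutamate and proline and set Farsa and Farsb each against Fars2. Per kb of exon the cytosolic gene was higher in 17 of 18 pairs, with a median ratio of 2.69, and in 12 pairs the ratio was over 2. Gars, Kars and Qars have no mitochondrial counterpart and entered no pair. Pairs that share Eprs or Fars2 are not independent of each other.

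The largest ratio was that of methionine, where Mars1 had 153 and Mars2 had 9.85 per kb of exon, a ratio of 15.5. For proline the ratio was 14.8, with Eprs at 132 and Pars2 at 8.94. For asparagine it was 7.53, with Nars at 222 and Nars2 at 29.5. The ratio of methionine depended on the length used and was 3.03 per kb of coding sequence, whereas that of proline rose to 29.3 and that of asparagine was 4.01.

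Leucine was the exception. Lars had 99.1 per kb of exon and Lars2 had 166, so the mitochondrial gene was 1.68-fold higher, and per kb of coding sequence it was 4.53-fold higher, with 681 against 150. Lars is also known as a leucine sensor upstream of mTORC1. The pair was in the same order without division by length, with mean normalized counts of 532 for Lars and 1844 for Lars2.

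Small ratios per kb of exon were also found for Farsa and for tyrosine. Farsa was 1.33-fold higher than Fars2, with 58.0 and 43.5, whereas Farsb, the other subunit gene, was 2.98-fold higher than Fars2 with 130. Yars was 1.51-fold higher than Yars2, with 69.2 and 45.7, but its ratio was 2.39 per kb of coding sequence and 2.86 without division by length, both above the median ratios of 1.91 and 2.04 on these scales. The isoleucyl pair followed, where Iars had 136 and Iars2 had 84.6, a ratio of 1.61. Per kb of coding sequence the order of isoleucine turned, with 190 for Iars and 248 for Iars2, Farsa and Fars2 were nearly equal with 173 and 177, and the ratio of Farsb to Fars2 was 1.08.

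**Figure D2:**
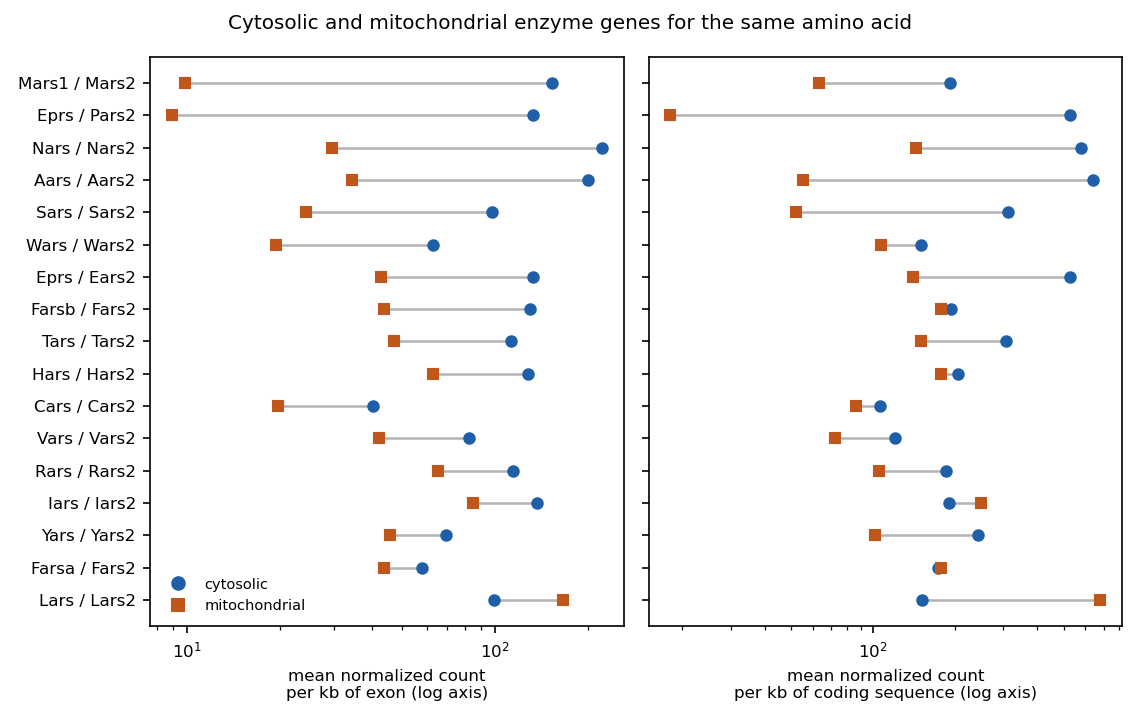
Levels of the cytosolic (circle) and the mitochondrial (square) gene for 17 of the pairs, as the authors' mean normalized count per kb of exon on the left and per kb of coding sequence on the right, on log axes. The circle lies to the right in 16 pairs on the left panel and in 14 pairs on the right panel, and the leucyl pair is turned in both.

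Across the 18 pairs, the level of the cytosolic gene said little about that of its mitochondrial counterpart, with a Spearman correlation of -0.10 per kb of exon. This is given as a description over pairs, which share the libraries and in part the genes.

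In the cytosol, 8 of the enzyme genes encode parts of the multisynthetase complex, a large assembly that gathers the enzymes for arginine, aspartate, glutamate, proline, glutamine, isoleucine, leucine, lysine and methionine. Their levels lay between 73.2 for Qars and 153 for Mars1 per kb of exon, with a median of 123. The other 12 cytosolic genes spread more widely, from 40.2 to 222, around a median of 105. The ratio of these medians was 1.17, and per kb of coding sequence it was 0.89, with medians of 199 and 224, so no order of complex and free enzymes held on both scales.

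Eprs is the longest enzyme gene of the family by exon and carries the glutamyl and the prolyl activity on a single chain. Its 18102 bases of exon brought it to 132 per kb of exon, rank 7 of the cytosolic set, while its coding sequence of 4536 bases brought it to 528 per kb. Kars, whose product is found in the complex and in mitochondria, had 113 per kb of exon. Gars, the other gene with products for both compartments, is not part of the complex and stood higher, with 180.

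The scaffold genes were low per kb of exon. Aimp2, whose protein bridges several enzymes in the core of the complex, had 45.7. Aimp1, a tRNA-binding protein and the precursor of a cytokine, had 33.0. Eef1e1, a small protein related in fold to glutathione transferases and also known as AIMP3, had 30.6. All 3 lay below Qars, the lowest enzyme gene of the complex. Per kb of coding sequence Aimp1 and Eef1e1 had 193 and 191, close to the complex median of 199, and only Aimp2 with 78.8 lay below the lowest enzyme of the complex. Their coding sequences are short, 957 bases for Aimp1 and 522 for Eef1e1, beside 5596 and 3257 bases of exon.

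**Figure D3:**
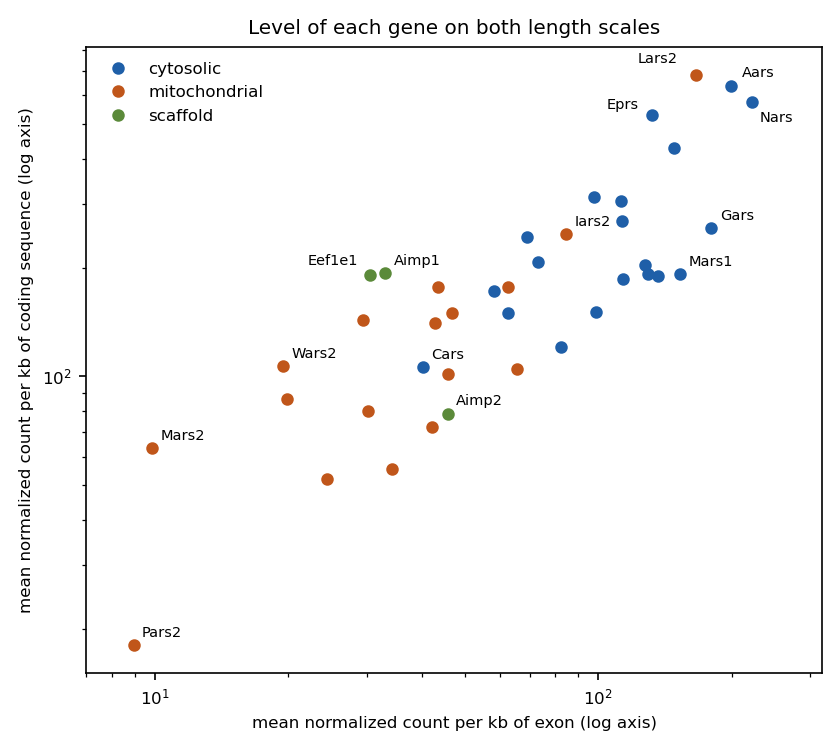
Level of each of the 40 genes per kb of exon (horizontal) against per kb of coding sequence (vertical), both from the authors' mean normalized counts and on log axes, with 1 point for each gene. Lars2 is the highest point on the vertical axis at 681, Pars2 is the lowest on both axes, and Aimp1 and Eef1e1 lie level with cytosolic enzymes on the vertical axis only.

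The choice of length mattered more for some genes than for others. Over the 37 enzymes the Spearman correlation between the levels per kb of exon and per kb of coding sequence was 0.87, within the cytosolic set 0.62 and within the mitochondrial set 0.73. The annotation joins the exons of all transcripts of a gene, also those that liver may not use, and the exons of the mitochondrial genes had a median of 2.93 bases per base of coding sequence against 2.49 in the cytosolic genes. Per kb of coding sequence the cytosolic median was 205 and the mitochondrial median 105, beside 168 over all protein-coding genes.

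Elongation factors and other partners of tRNA charging gave a scale for these levels. In the cytosol, Eef1a1, which carries charged tRNA to the ribosome, had 8276 per kb of exon, and Eef2, which moves the ribosome along, had 5242. Both were far above the highest synthetase gene, Nars, with 222. The subunits of the exchange factor of Eef1a1 were lower, with 440 for Eef1b2, 268 for Eef1g and 111 for Eef1d, the last of which lay within the range of the cytosolic enzymes.

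In mitochondria the corresponding gap to the highest enzyme gene, Lars2, was small per kb of exon, and its direction depended on the scale. Tufm, the mitochondrial counterpart of Eef1a1, had 265 per kb of exon and Gfm1, the elongation factor of translocation, had 225. On this scale both exceeded Lars2 with 166. Per kb of coding sequence Lars2 exceeded both, with 681 against 415 for Tufm and 441 for Gfm1. It also did so without division by length, with mean normalized counts of 1844 against 562 and 993. The levels below are per kb of exon. Gfm2, which recycles ribosomes, had 61.05 and Tsfm, the exchange factor of Tufm, had 38.3. The enzyme that converts the glutamate on mitochondrial glutamine tRNA to glutamine is encoded by Gatb, Gatc and Qrsl1, with 63.4, 90.2 and 16.6. Mtfmt, which adds a formyl group to the initiator methionine that Mars2 attaches, had 18.5, low like Mars2. Over the 8 mitochondrial partners the median was 62.2, beside 42.1 for the mitochondrial enzymes. The median of the partners was also the higher on the other scales. It was 221 against 105 per kb of coding sequence and 217 against 181 without division by length.

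**Figure D4:**
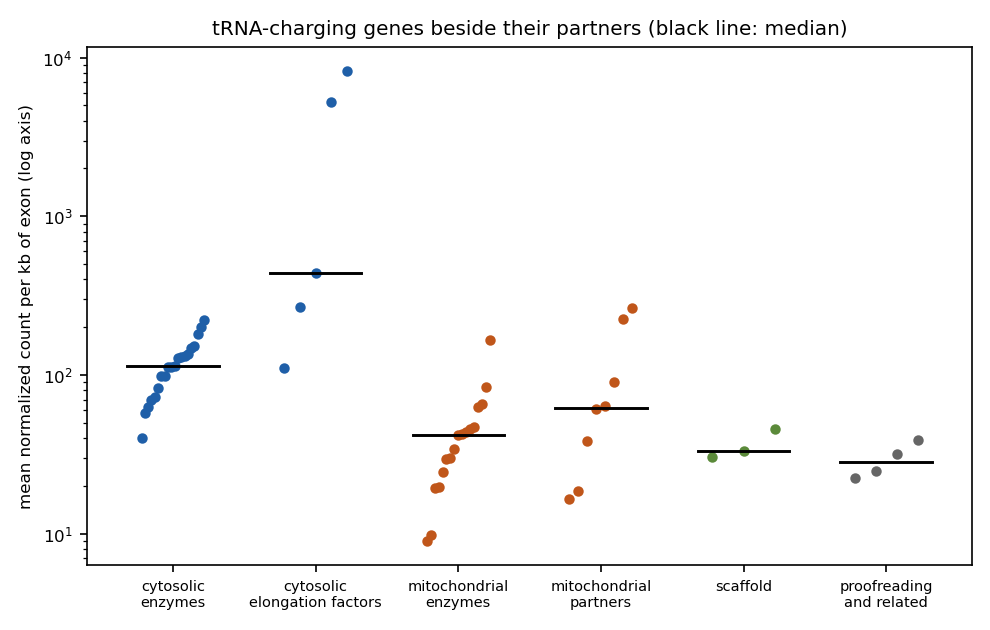
Levels as the authors' mean normalized count per kb of exon, on a log axis, with 1 point for each gene and a black line at the median of each list. The cytosolic elongation factors reach 8276 while the cytosolic enzymes end at 222, and the mitochondrial enzymes and their partners cover similar ranges, from 8.94 to 166 and from 16.6 to 265.

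Proofreading and related genes were low per kb of exon. Of 7 symbols searched, 4 were listed: Dtd1 and Dtd2, which remove wrongly attached D-amino acids or related errors, Ptrh2, a peptidyl-tRNA hydrolase, and Tarsl2, a threonyl enzyme like Tars that the rule does not cover. Their levels ran from 22.4 for Dtd1 to 38.8 for Ptrh2 per kb of exon, and Tarsl2 had 24.7 against 113 for Tars. Per kb of coding sequence, Ptrh2 with 224 and Dtd2 with 197 lay above the median of 168 over protein-coding genes, and Dtd1 with 84.2 and Tarsl2 with 70.3 below it. Aarsd1 was not listed, and Tars3 is another name of Tarsl2.

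Some counts could depend on how reads were handled in exons shared with other genes. The study counted reads with the GeneCounts setting of STAR, and the strand setting of the counting is not stated in the sources used here. How reads in shared exons were counted was not tested. Of the 40 members, 24 share no exonic base with another gene in the annotation, 16 share some and 5 share over 10% of their exonic bases. The largest shares were 29.4% for Aimp2 with Eif2ak1 and 22.9% for Iars2 with Rab3gap2, both on the opposite strand. Aars shares 14.3% with Exosc6 on the same strand, which the kit's strand could not separate. Fars2 passed the limit through Nrn1 and Lyrm4 together, both on the opposite strand. Hars and Hars2 lie head to head and share 195 exonic bases, 7.97% of Hars and 4.56% of Hars2, on opposite strands.

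Identical sequence elsewhere was searched as runs of 50 bases shared with the annotated transcripts of other genes in the same sense. Copies with a difference inside each run, or outside annotated transcripts, would not be found. Aars shared 13.5% of its runs, 1277 of them with Exosc6, and Iars shared 7.15% of its runs with Gm4849. In every other member the share was at most 1.24%, found in Yars. For Lars2, the mitochondrial enzyme that stands apart, it was 0.196%, and no overlap of its exons with another gene was found in the annotation. Its exons add up to 11089 bases around a coding sequence of 2706 bases. Where in these exons its reads lie was not tested, nor whether RNA from outside the annotated transcripts, such as remaining rRNA, adds to its count.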

How the data were processed

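Total RNA was isolated with TRIzol, depleted of rRNA and made into libraries with a directional kit. Per the methods of the study, reads were mapped by the authors with STAR 2.5.3a (a version that the submitters' processing notes give too), counted on Ensembl genes and normalized with the RLE method of DESeq2. The genome build and the strand setting are not given in the sources used here. The authors deposited 1 liver table, whose mean normalized count is a signal, taken to be averaged over the compared libraries, with no values of single mice. Its other 5 numeric columns hold the authors' own comparison (log2 fold change, standard error, statistic, p-value and adjusted p-value) and were not used. Depth per library is unknown, so no precision can be given.

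Here 11754 of 11779 listed genes were found in GENCODE M21 by identifier, and the mean normalized count was divided by the kb of joined exons or, as an alternative, of the longest coding sequence of the same annotation, in place of lengths from RefSeq proteins. All 40 members were found, 39 with the same symbol (Mars1 is Mars there). The 5 highest and 5 lowest enzymes of each set, the scaffold genes and the 3 pairs with the largest and the 3 with the smallest ratios were described by rule, and the other members as a range or where a result turns on them. Members, lists and the motif were chosen with earlier results of these data known. The planned test of LL35 ASO against Luc ASO needs values of single libraries and was not run. Scripts were tested on simulated data and ran under Python 3.11.15 with numpy 2.4.6, pandas 2.3.3 and matplotlib 3.10.9. Single values of a few items are not reported here.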

Additional observations from a re-analysis of the deposited data

How the results depend on the processing

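The ratio of the cytosolic to the mitochondrial median level, 2.69 per kb of exon, was above 1 under each alternative run. It was 1.96 per kb of coding sequence and 2.78 without division by length. With Gars and Kars left out it was 2.69, with both counted in both sets 2.65, with genes at a mean normalized count of at least 50 only 2.67, with Farsa and Farsb as their mean 2.68, and from geometric means 3.03. Alternatives chosen after seeing the data gave 2.97 without Lars2 and 2.96 without enzymes that have over 10% of their exonic bases in another gene. The cytosolic gene was higher in 17 of 18 pairs per kb of exon, 16 of 18 without division by length, 15 of 18 per kb of coding sequence, 16 of 17 with the minimum of 50, and 12 of 13 without the overlapping enzymes. The ratio of complex to free enzymes, 1.17, was 1.21 without division by length, 1.26 with Farsa and Farsb as their mean, 1.26 without the overlapping enzymes, and 0.89 per kb of coding sequence, where its direction turned. These ratios have no error, since the values are means over libraries. The planned fits with other tools or without a filter on low counts, and those leaving out each library, were not run, because they need values of single libraries. No paired analysis was possible because the table holds no values of single libraries.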

Other observations

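Aminoacyl-tRNA synthetases fall into structural classes with unrelated catalytic folds, and each class holds about as many cytosolic as mitochondrial members here. Among cytosolic enzymes, the 10 genes of class I had a median level of 90.7 per kb of exon and the 10 genes of class II a median of 129. All 10 cytosolic class II genes lay above the median of the listed protein-coding genes, and 9 of the 10 of class I, the exception being Cars. Per kb of coding sequence the medians were 188 and 288, and 6 of the 10 class I genes and all 10 class II genes lay above the median of protein-coding genes. Eprs was counted in class I by its glutamyl activity, although its prolyl activity belongs to class II. Among mitochondrial enzymes the order was not the same on both scales, with medians of 42.8 for the 9 genes of class I and 32.2 for the 8 of class II per kb of exon, and 105 and 112 per kb of coding sequence. No test was made of these differences, since genes are not replicates.

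Within each set the mean normalized count rose only weakly to moderately with the length of the gene. The Spearman correlation of the mean normalized count with the bases of exon was 0.33 over the 20 cytosolic genes and 0.33 over the 17 mitochondrial genes, and with the bases of coding sequence it was 0.48 and 0.38. Over the 37 enzymes of both sets together it was 0.22 with the bases of exon and 0.55 with the bases of coding sequence. These are descriptions over genes measured in the same libraries.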
